A study of Mus musculus with 2 samples.

Results

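The 9 genes described here encode transcription factors and nuclear receptors that direct gene expression in the hepatocyte. They are Hnf4a, Foxa1, Foxa2, Foxa3, Onecut1, Cebpa, Nr1i3, Nr1h4 and Nr0b2. They were chosen by name with earlier results of these data known, and the study itself had singled out Hnf4a from the same data. The members are 9 of 37074 gene names on the array, read by 11 of its 55681 probes. Foxa2 and Nr1i3 have a pair of probes, and the other members have 1 probe each, every probe being 1 spot on each array.

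RNA of the prefrontal cortex (PFC) of male C57Bl/6 N sea mice was hybridized to 2 one-color Agilent mouse arrays, 1 for the control group (C group, called controls below) and 1 for the chronic mild stress group (CMS group). The CMS group had gone through repeated unpredictable mild stressors such as restraint, wet bedding and forced swimming, and the C group had received ordinary care. The CMS mice were housed singly and the C mice in groups, so that housing and stress cannot be told apart. The design text gives a pool of 7 mice per array, while the methods of the study give another number of mice, and with 1 array per group the spread between mice is unknown. No test between the groups was therefore made, and "higher" or "lower" below stands for a ratio above 2 or below 0.5.

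Hepatocyte nuclear factor 4 alpha (Hnf4a) is an orphan nuclear receptor that drives genes of lipoproteins, coagulation factors and metabolic enzymes, and besides the liver it is active in kidney, intestine and pancreas. The forkhead factors Foxa1, Foxa2 and Foxa3 open chromatin at liver genes, and Foxa1 and Foxa2 also act in dopamine neurons of the midbrain. Onecut1 (HNF6) is a homeodomain factor of liver and pancreas, and Cebpa is a basic leucine zipper factor of liver, fat and myeloid cells. Of the ligand-regulated receptors, Nr1h4 (FXR) senses bile acids, Nr1i3 (CAR) responds to foreign compounds, and Nr0b2 (SHP) is a receptor without a DNA-binding domain that FXR induces and that represses bile acid synthesis. Hnf4a is transcribed from an upstream and a downstream start, and the downstream one is the start used in adult hepatocytes.

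The promoters of the 2 members that were higher under CMS, Hnf4a and Nr1h4, are shown with that of Nr1i3, whose probes differed. Capitals mark the match to a motif of the factors themselves, which only the upstream start of Hnf4a has within these stretches. The sequences are those of RefSeq on GRCm38.p6, written on the strand of the gene, and they end at the base before the start or, for the upstream start of Hnf4a and for Nr1i3, where the annotated gene begins. The windows are chr2:163506697-163506810 and chr2:163546995-163547154 on the plus strand for Hnf4a, chr10:89506659-89506818 on the minus strand for Nr1h4 and chr1:171213810-171213933 on the plus strand for Nr1i3.
Hnf4a, upstream start: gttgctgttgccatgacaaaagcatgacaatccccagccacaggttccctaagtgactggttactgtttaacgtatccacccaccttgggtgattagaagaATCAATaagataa
Hnf4a, downstream start: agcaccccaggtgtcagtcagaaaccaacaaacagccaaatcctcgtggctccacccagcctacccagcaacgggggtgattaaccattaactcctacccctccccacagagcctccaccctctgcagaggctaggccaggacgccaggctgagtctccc
Nr1h4: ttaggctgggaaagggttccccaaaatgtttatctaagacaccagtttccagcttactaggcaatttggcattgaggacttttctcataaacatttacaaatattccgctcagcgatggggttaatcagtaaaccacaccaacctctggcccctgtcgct
Nr1i3: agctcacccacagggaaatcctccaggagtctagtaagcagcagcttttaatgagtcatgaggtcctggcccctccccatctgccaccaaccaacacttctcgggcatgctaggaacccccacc

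The 250 bases before each start were searched on both strands for 6 motifs. These were CAAAGTCCA of HNF4, AGGTCA, the half-site of nuclear receptors, TGTTTAC and TGTTTGC of forkhead factors, ATTGAT of HNF6 and TTGCNNAA of C/EBP. None of these motifs contains another. The upstream start of Hnf4a held 1 match to ATTGAT, on the other strand, which 6.72% of 32851 such windows in the reference table held. Nr1h4 had AGGTCA on the other strand, upstream of the stretch printed, and 4607 of the windows held it. None of the 6 motifs was found before the downstream start of Hnf4a or before the starts of Nr1i3, Cebpa, Nr0b2, Foxa3 or Onecut1. Foxa1 had TGTTTAC, found in 3.17% of the windows, and of the 3 starts of Foxa2 1 had ATTGAT. These matches are a description of letters and do not show that a factor binds there.

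The value used here for a spot is its background-subtracted intensity from the scanner software, and each array was brought to a mean probe signal of 2500. Of the gene spots, 65.2% were well above background in controls and 65.9% under CMS, and no spot was saturated. The lowest scaled signal of a probe well above background was 17.8 in controls and 17.6 under CMS, and the 308 negative control spots had a median of 4.29 and 4.20. Where a probe was dim in 1 group, the larger of its signal and this lowest signal was used there. The fold change is a lower bound where the lowest signal was used, and otherwise the ratio of the 2 signals. A probe not well above background in either group was given no ratio. Of 27117 genes with a ratio, 539 (1.99%) were higher under CMS and 160 (0.590%) were lower, and the median log2 ratio was -0.03. Higher genes made up 77.1% of these calls, 62.9% without scaling and 87.5% after another background correction (normexp) with quantile normalization. Markers of cortical neurons were as the tissue label has it, with all 9 well above background in both groups, Snap25 at a scaled signal of 48526 in controls and 47959 under CMS, and none higher or lower. None of the 5 astrocyte, 5 oligodendrocyte and 5 microglia markers was higher or lower either, with median log2 ratios of -0.09, -0.16 and 0.05.

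Among the 9 members, Hnf4a and Nr1h4 were higher under CMS and none was lower. Cebpa and Nr1i3 had ratios within 2-fold. Foxa1, Foxa2, Foxa3, Onecut1 and Nr0b2 were not well above background in either group and had no ratio. Nr1h4 has a ratio only because it was well above background under CMS, so the count of 2 among the 4 members with a ratio is a description only. The shares of all genes that were higher or lower were 1.99% and 0.590%, and 1.16% and 0.173% among the 25433 well above background in both groups.

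**Figure D1:**
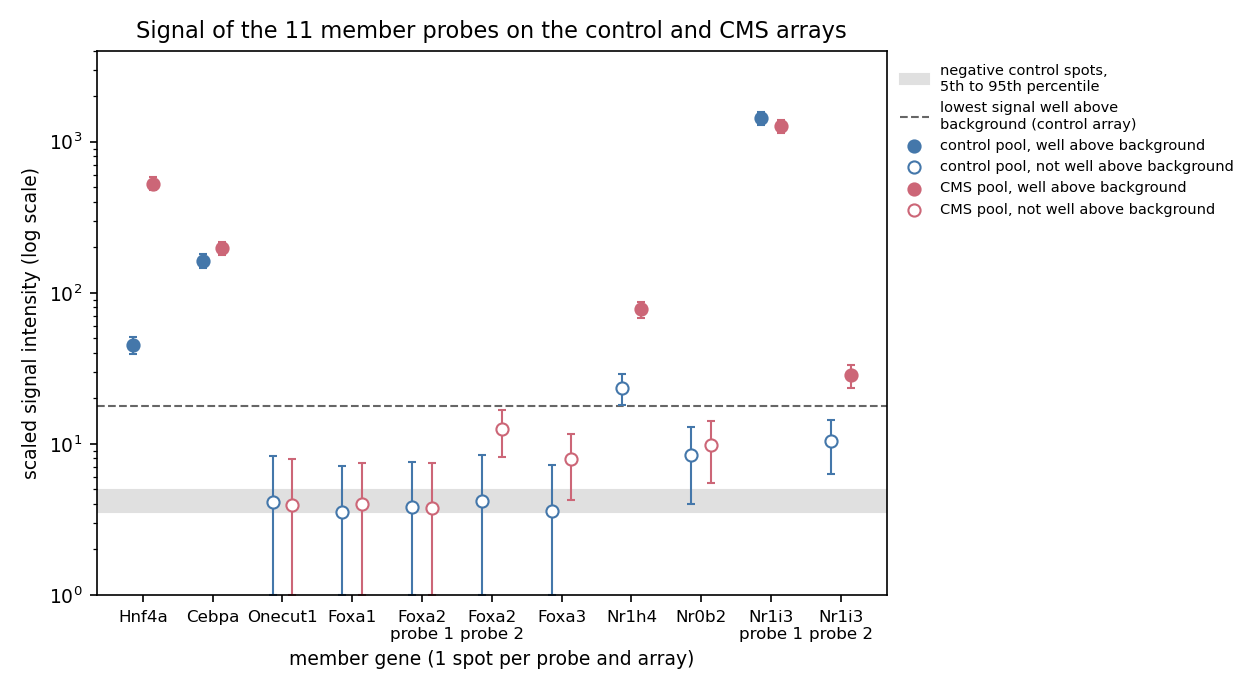
Scaled signal intensity (log axis) of the 11 probes of the 9 members in the control pool (blue) and the CMS pool (red), 1 spot each; bars are the scanner software's error, cut off at 1 where they reach lower. Filled points are well above background, the dashed line is the lowest such signal of the control array, 17.8, and the grey band holds the 5th to 95th percentile of negative control spots. Hnf4a at 45.1 and 529 has the widest gap between the groups, and Foxa1, Onecut1 and 1 Foxa2 probe lie below the median of the negative controls in both.

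Hnf4a (probe of NM_008261) gave a scaled signal of 45.1 ± 5.83 in controls and 529 ± 53.0 under CMS, where the error is the one the scanner software gives each spot. Both spots were well above background, and the raw median pixel intensity was 111 over a local background of 48 in controls and 658 over 37 under CMS. Expression was thus 11.7-fold higher under CMS, a log2 ratio of 3.55 ± 0.24, with an interval of 8.50 to 16.2-fold at the 95% level that covers scanner error only. Of the 27117 genes, 16 had a higher log2 ratio than Hnf4a. The antisense transcript Hnf4aos, which overlaps Hnf4a, was not well above background in either group, with signals of 9.90 and 19.1.

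The position of the Hnf4a spot was examined as well. The 266 surrounding spots well above background in both groups, within 10 rows and columns, had a median log2 ratio of 0.01. Of the 136 surrounding spots not well above background in controls, 16.9% were so under CMS, against 7.90% of such spots over the whole array. The part of array position in these values was not tested.

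The Nr1h4 probe (NM_001163504) had signals of 23.5 ± 5.37 in controls, not well above background, and 77.7 ± 9.10 under CMS, well above it. The fold change of FXR mRNA, 3.31, is the ratio of these signals, since the dim one lay above the lowest signal of a probe well above background, and it does not cover the error of the dim signal. After normexp background correction with quantile normalization its log2 ratio fell from 1.73 to 0.62, below 2-fold. This correction adds an offset of 50 to each intensity, which by itself shrinks the ratios of dim probes. Around the Nr1h4 spot, 4.52% of the spots not well above background in controls were so under CMS.

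Cebpa (NM_007678) was well above background in both groups, with signals of 163 ± 17.0 in controls and 198 ± 20.3 under CMS. Its log2 ratio of 0.28 ± 0.21 had an interval from -0.13 to 0.69, so that a rise of up to 1.62-fold lies within scanner error. For comparison, replicate spots of 310 other probes scattered by 0.14 (SD of the log2 ratio).

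The 2 probes of Nr1i3 carry the same accession (NM_009803) and gave different pictures. The first had signals of 1426 ± 143 in controls and 1261 ± 126 under CMS, a log2 ratio of -0.18 ± 0.20. The second had 10.4 ± 4.06 in controls, not well above background, and 28.4 ± 4.83 under CMS, well above it, a ratio of at least 1.60. In the annotation Nr1i3 overlaps Tomm40l, which encodes a mitochondrial import protein, and the probe of Tomm40l had signals of 1007 in controls and 952 under CMS, a log2 ratio of -0.08. Which transcript each Nr1i3 probe reads was not tested.

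The other members were not well above background in either group. Foxa1 had 3.56 in controls and 3.97 under CMS, and Onecut1 had 4.13 and 3.94. Both genes were below the median of the negative control spots in both groups, and the signal of Onecut1 was no larger than its error. For Foxa2, 1 probe had 3.81 and 3.75, and the other 4.20 and 12.5. Foxa3 had 3.61 in controls and 7.94 under CMS. The second Foxa2 probe and the Foxa3 probe were above most negative control spots under CMS only, but stayed below the lowest signal well above background, so no fold is given for them. Nr0b2, the SHP gene that FXR induces, had 8.46 ± 4.44 in controls and 9.79 ± 4.28 under CMS, a difference smaller than either error, and these were above 97.4% and 98.4% of the negative control spots.

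Relatives of the members and other regulators of liver genes were then looked at, as a list of 41 genes that are all on the array. Of these, 34 had a ratio, with a median log2 ratio of -0.02. Creb3l3, a liver and intestine factor of lipid and acute phase genes, was higher, going from 106 to 320, a log2 ratio of 1.60. It was the only one of the 41 that was higher, or 1 of 3 where no bound was set for dim probes, and none was lower. Hnf4g and Onecut3 were not well above background in either group. Onecut2, which is expressed in neurons, had signals of 495 and 639 and a log2 ratio of 0.37.

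Among the relatives of Cebpa, Cebpb and Cebpd had log2 ratios of 0.30 and -0.37. Cebpe, a factor of granulocytes, was well above background under CMS only, with a ratio of at least 1.58. Of the other nuclear receptors, Nr1i2 (PXR), which shares many targets with Nr1i3, and Nr5a2 (LRH-1), a regulator of bile acid synthesis, were likewise well above background under CMS only. The ratio was at least 1.60 for Nr1i2. For Nr5a2 it was 1.94, the ratio of its signals of 19.8 and 38.4, since the dim one lay above the lowest signal well above background. Of the 19 nuclear receptors listed, 18 had a ratio and none was higher or lower, with a median log2 ratio of -0.02. Those well above background in both groups ran from -0.50 for Vdr to 0.38 for Nr1h3, which encodes the oxysterol receptor LXR alpha. The 2 probes of Rxra, the partner of FXR and CAR, had log2 ratios of 0.14 and -0.32.

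Known targets of the members were mostly higher. Of 36 target genes in 5 lists, 34 were on the array and 31 had a ratio. There, 20 were higher, none was lower, and the median log2 ratio was 2.66. Of all genes with a ratio, 1.99% were higher. Of the 31 targets, 25 were well above background in both groups, with a median of 2.84. The rest had a ratio only because they were well above background under CMS, and 2 of the 20 calls were among them. Each list was written with earlier results of these arrays known, and several of the genes were picked by the study from the same arrays, so these counts are not independent evidence of a direction.

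Of the targets of Hnf4a, 5 of 7 with a ratio were higher. The median log2 ratio was 2.84 over the 7 and 2.02 over the 6 well above background in both groups. Apoa1, the main protein of high-density lipoprotein, went from 48.1 to 507, and Apoc3, an inhibitor of lipoprotein lipase, from 408 to 2911. Otc of the urea cycle, not well above background in controls, was at least 11.6-fold higher. Mttp, which loads lipid onto apolipoprotein B, had a log2 ratio of 0.28 and the coagulation factor gene F9 had 0.19, and neither passed 2-fold. Apoa4 was not well above background in either group.

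For the Foxa factors, which were themselves not well above background, 3 of 5 targets were higher. Of these 5 Foxa targets, 4 were well above background in both groups. Igfbp1, which binds insulin-like growth factors, went from 167 to 1838 and Ttr, the carrier of thyroxine and retinol-binding protein, from 453 to 4711. All 5 targets of Cebpa were higher, among them Pck1, the enzyme that commits carbon to gluconeogenesis, with a log2 ratio of 3.57, and Cps1, the first enzyme of the urea cycle, with 2.26. Cebpa itself had 0.28. Of the 5 targets, 4 were well above background in both groups. The call of Gys2 rests on 1 probe that was dim in controls, and its other probe was not well above background in either group.

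Of the 8 targets of Nr1i3 with a ratio, 3 were higher. Only 5 of the 8 were well above background in both groups, and the rest were so under CMS only. Cyp3a11, a major drug-metabolizing cytochrome, went from 164 to 1733, a log2 ratio of 3.40, although its other probe gave 1.33. Cyp2b10, the best known CAR target, had a ratio of at least 1.87, from a signal of 11.9 not well above background in controls to 33.3. Por and Alas1, which most cells express, were neither higher nor lower, Por with a log2 ratio of -0.17 and Alas1 with signals of 10828 and 10817.

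Of the targets of Nr1h4, Abcb11, the bile salt export pump, went from 20.1 to 281, a log2 ratio of 3.81. The fibrinogen genes Fga, Fgb and Fgg had log2 ratios of 1.11, 3.23 and 3.31. Abcb4 and Slc51b had 0.05 and 0.02, and Slc51a and Fgf15 were not well above background in either group. Among 9 genes of bile acid synthesis and uptake, Cyp7a1 and Cyp8b1, the enzymes that SHP represses, were not well above background in either group. In this list 2 genes were higher. Slc27a5, which conjugates bile acids to coenzyme A, had a log2 ratio of 2.38, and Cyp27a1, a sterol hydroxylase, was at least 2.05-fold higher.

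**Figure D2:**
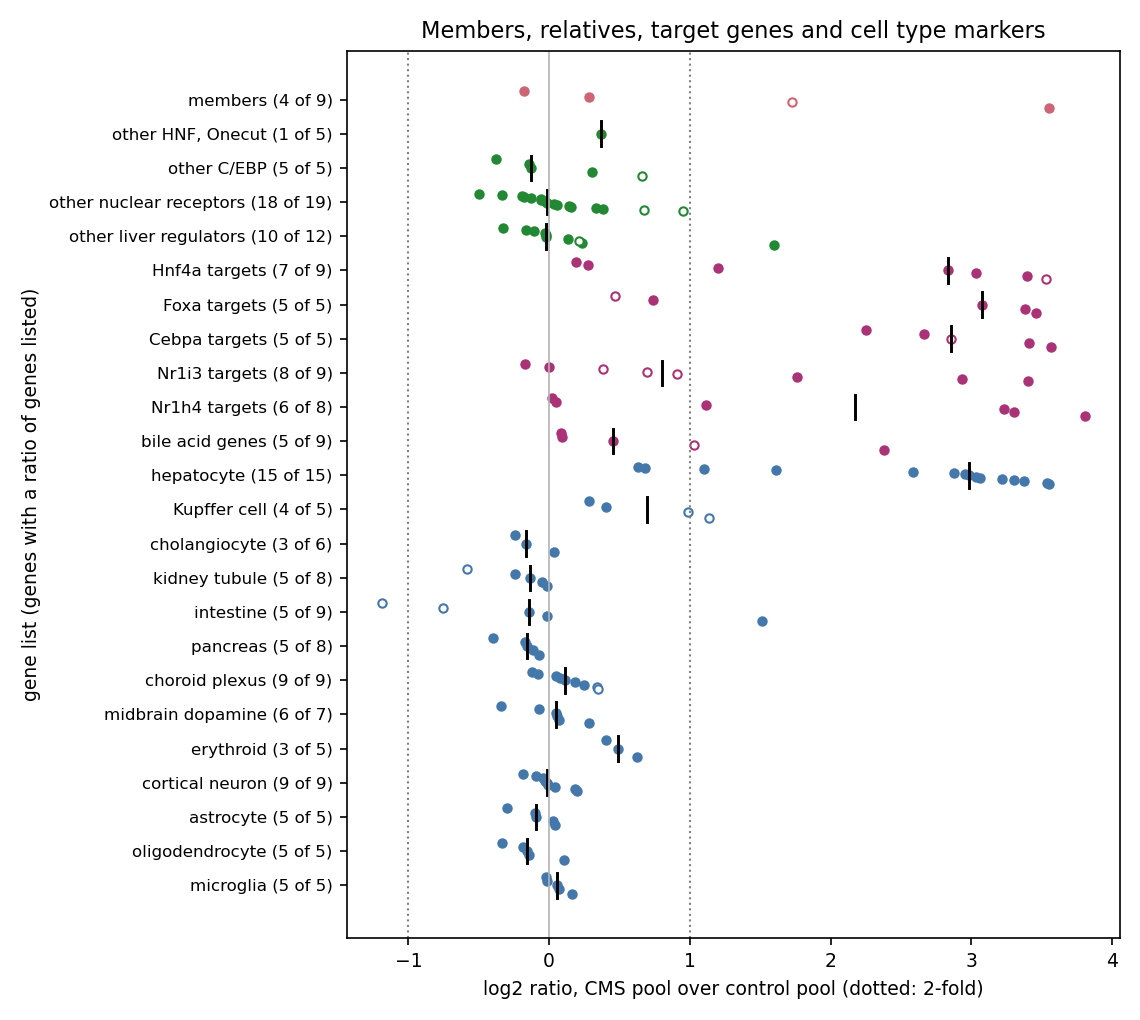
Log2 ratio of the CMS pool over the control pool (x axis) for the genes of each list (y axis), with the number that had a ratio of the number listed; open points are bounds, black lines are medians (none drawn for the 4 members) and dotted lines mark 2-fold. Targets and hepatocyte markers reach far to the right of the 2-fold line, while of the 34 other regulators with a ratio only Creb3l3, at 1.60, passes it.

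Markers of hepatocytes were mostly higher, as Hnf4a was. All 15 were well above background in both groups and 13 were higher, with a median log2 ratio of 2.98 and a range from 0.63 to 3.55. Of all genes well above background in both groups, 1.16% were higher. This list too was written with earlier results of these arrays known. Several of its genes were picked by the study from the same arrays, so the count is not independent evidence of a direction. Their summed scaled signal was 6333 in controls and 55838 under CMS, and Alb alone went from 1509 to 17486. Of the 51 target, bile acid and hepatocyte genes with a ratio, 17 lay within 0.5 of the log2 ratio of Hnf4a. The share of all genes in that range was not counted, so the count is a description only. It includes Otc, whose value is a bound, and Cyp3a11, whose other probe had a log2 ratio of 1.33. The part of hepatocyte transcripts in the value of Hnf4a was not tested, and whether RNA of liver cells or expression in cortex cells gave it cannot be told apart with 1 pool per group. In pooled tissue, more cells of a type and more RNA per cell cannot be told apart either.

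Other cell types in which members are active were examined in the same way. Of 9 intestinal markers, 5 had a ratio, 3 of them well above background in both groups. Fabp2 was higher and Sis lower. Sis went from 40.0 in controls to 13.4 under CMS, not well above background there, so its ratio of 0.44 is a bound. Cdx1, Cdx2, Alpi and Cdh17 were not well above background in either group. None of the markers of kidney proximal tubule, pancreas, choroid plexus and midbrain dopamine neurons was higher or lower, with median log2 ratios of -0.14 over 5 genes, -0.15 over 5, 0.11 over 9 and 0.05 over 6. Over the genes with a ratio, the summed scaled signals of controls and CMS were 485 and 539 for intestine, 1356 and 1186 for kidney, 882 and 795 for pancreas, 1073 and 1099 for choroid plexus and 6765 and 7441 for dopamine neurons. Of the other liver cells, cholangiocyte markers had a median of -0.16 over 3 genes, with sums of 1537 and 1460, and Krt19, Krt7 and Epcam were not well above background in either group. Among 4 Kupffer cell markers with a ratio, Clec4f was at least 2.20-fold higher, the median was 0.70 and the sums were 310 and 447. In 2 of the 4 the value is a bound, and the median was 1.52 with no bound, 0.35 for those well above background in both groups and 0.29 after normexp. Erythroid markers had log2 ratios from 0.41 to 0.62 over 3 genes, with sums of 19457 and 25811. Their part in the values of the members was not tested.

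The 5 named genes whose pair of signals was nearest to that of Hnf4a were Apoa1, Hpd, Cyp2c50, Ces1c and Agxt. Nearness was the summed absolute difference of log2 scaled signals over the 2 arrays, and it ran from 0.15 for Apoa1 to 0.40 for Agxt. Hpd, an enzyme of tyrosine breakdown, had signals of 47.7 and 560. Agxt, which detoxifies glyoxylate, had 45.0 and 402. Signals of different probes do not rank the amounts of their transcripts, and 2 arrays give each gene only a pair of values.

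The settings used to process the arrays bore on the members unequally. Hnf4a stayed above 2-fold in all 12 alternatives, from a log2 ratio of 2.52 to 3.57. Nr1h4 passed 2-fold in all that gave it a value except normexp, and had no value where both arrays had to be well above background. The first probe of Nr1i3 had a log2 ratio of -0.18, and the mean of both its probes gave 0.25.

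**Figure D3:**
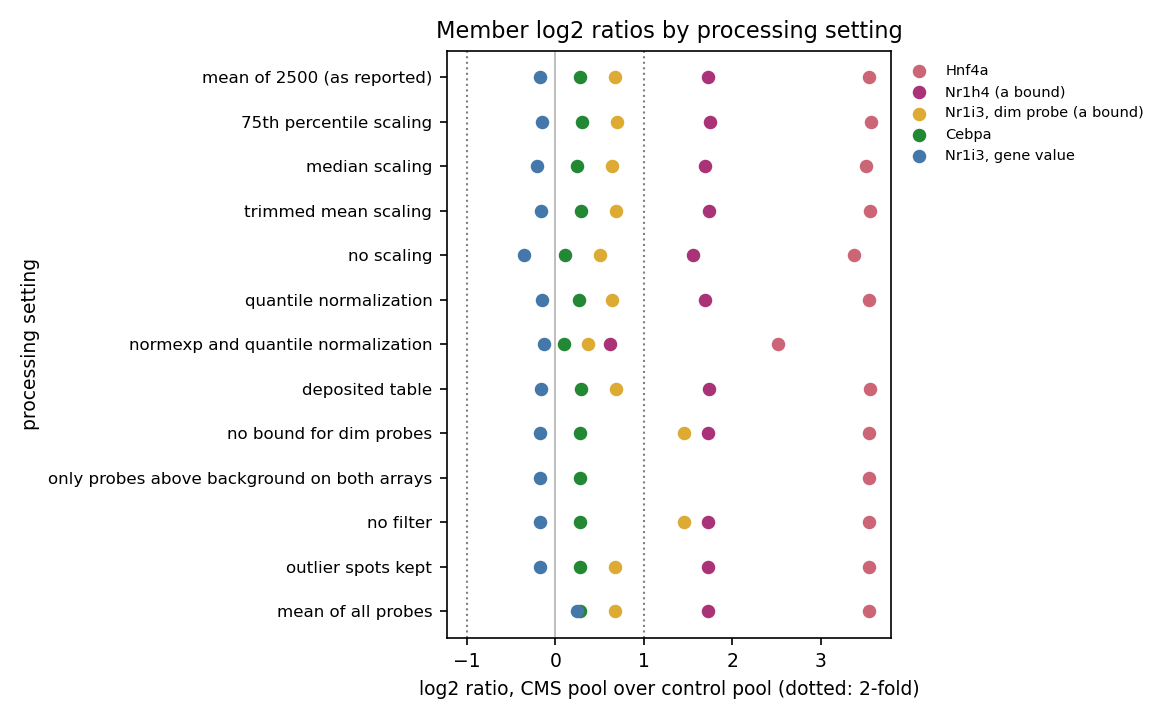
Log2 ratio of the CMS pool over the control pool (x axis) of the 4 members with a ratio, and of the second Nr1i3 probe, under each processing setting (y axis); dotted lines mark 2-fold. Hnf4a runs from 2.52 to 3.57, Nr1h4 drops to 0.62 after normexp, and the second Nr1i3 probe rises to 1.45 where no bound is set. At the reported setting the Nr1h4 value, labelled a bound, is the ratio of its signals.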

How the data were processed

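Both arrays (Agilent SurePrint mouse, on 1 slide) carried Cy3-labelled cRNA of pooled PFC RNA. Per the file headers, the authors extracted spots with Agilent Feature Extraction 10.10.1.1, which gives background-subtracted, spatially detrended intensities on a linear scale. The authors also deposited a table of these intensities multiplied by 1 factor per array, about 1.80 for the C group and 2.05 for the CMS group, used here as an alternative. The arrays were designed on another build (mm9) than the GRCm38.p6 reference tables, which were used for names, gene overlaps and promoter sequences only. The files give no gene symbols, and 30740 of 59305 spots were named by accession without version.

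Control spots and outlier spots (130 and 133) were left out, spots of a probe were averaged, and a probe was taken as well above background if a share of 0.5 or more of its spots were marked so by the software. Arrays were scaled to a mean of 2500 over all probes. The methods of the study name this average without the probes it was taken over, and the deposited table gave Hnf4a a log2 ratio of 3.56 against 3.55 here. Bounds were then set, and log2 ratios were taken. Where a gene had several probes, the brightest by mean log2 signal over both arrays, after the bound, stood for the gene, and all probes of members are given. The members and the 23 other lists were chosen with earlier results of these data known. Of the listed genes, those to be named were the members, genes higher or lower and the brightest of the others, and the 5 genes nearest to Hnf4a. Other listed genes, among them those near background, were named after their values were seen. The tables used here hold no proteins. Hbb-b1, Apoc2 and Ugt1a1 had no probe named here. No test was possible with 1 array per group, so no depth or replicate error is given beyond the software's error per spot and precision is limited by the number of arrays.

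The alternatives were scaling to the 75th percentile, the median or a mean without the lowest and highest 2%, no scaling, quantile normalization, normexp with an offset of 50 on median intensities, the deposited table, 3 treatments of dim probes, outlier spots kept, and the mean of all probes. Tested on simulated arrays of this comparison with 200 genes changed 4-fold among 26293, the method called 200 changed genes in the right direction and 0 unchanged ones. The planted change lay above the 2-fold limit of a call. The result checks the calculation only and gives no rate of false calls for the real arrays. Calculations used Python 3.11.15, numpy 2.4.6, pandas 2.3.3, matplotlib 3.10.9, R 4.3.3 and limma 3.58.1.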

Additional observations from a re-analysis of the deposited data

How the results depend on the processing

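No paired analysis was possible because each group has 1 array, and for the same reason no replicate could be left out and both arrays share the slide, so it cannot be a block. A value counts as moved if it shifted by over 0.14 on the log2 scale, the SD between replicate spots (for a median, the error this SD gives it), and a count if it shifted by over 1.5 times. Of the values for members, main lists and all genes, 183 stayed within these limits and 43 moved. The causes were not tested unless the setting fixes them, as where fewer or more probes enter. Without scaling, the log2 ratio of Hnf4a was 3.38, Cebpa 0.11, Nr1h4 1.55, Nr1i3 -0.35 and its second probe 0.50, the medians were 0.83 for members, -0.19 for other regulators, 1.84 for target and bile acid genes and 2.81 for hepatocyte markers, and 256 genes were lower; the median of all genes was then -0.20. After normexp with quantile normalization, Hnf4a was 2.52, Cebpa 0.093, Nr1h4 0.62 and the second Nr1i3 probe 0.37, 1 member was higher, the medians were 0.36 for members, 1.21 for target and bile acid genes and 2.55 for hepatocyte markers, and 265 genes were higher and 38 lower. With no bound for dim probes, the second Nr1i3 probe was 1.45, 3 other regulators were higher, the target and bile acid median was 2.32 and 315 genes were lower. For probes above background on both arrays, 1 member was higher, the members' median was 0.28 and the target and bile acid median 2.38, and 294 genes were higher and 44 lower. With no filter, the second Nr1i3 probe was 1.45, 4 members were higher (Hnf4a, Nr1h4, Foxa2 at 1.57 and Foxa3 at 1.14), the median of all 9 was 0.28, 4 other regulators were higher and 1 lower, 1 target or bile acid gene was lower with a list median of 1.48, and 1493 genes were higher and 1069 lower. With the mean of all probes, Nr1i3 was 0.25, which turns its sign, the target and bile acid median was 2.20 and the hepatocyte median 3.03. Under median scaling the medians were -0.050 for other regulators and 1.98 for target and bile acid genes. Of the medians of the smaller lists, 213 stayed and 51 moved, 21 of them without scaling. Signal over background limits Nr1h4, the second Nr1i3 probe and the members near background.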

Other observations

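Nr1i3 was not the only gene of the lists whose probes differed. Slc10a1, the bile acid uptake transporter of hepatocytes, had 1 probe at 501222 in controls and 534088 under CMS, a log2 ratio of 0.09. Its other probe went from 6.32, not well above background, to 36.1, with a log2 ratio of at least 1.02. For Apoa2 the log2 ratios of the probes were 1.20 and 3.10, and for Fga 1.11 and at least 2.77. For Serpina1a they were 3.07 and 3.06, and for Gc 3.22 and 3.12. These genes were picked after their values were seen, and what each probe reads was not tested.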
